A study of Mus musculus with 15 samples.

Results

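Saa1, Saa2, Saa3, Orm1, Orm2, Hp, Lrg1, Lcn2 and Ltf encode acute-phase proteins and iron-binding or antibacterial proteins of milk. These 9 genes were taken from the 12393 genes that the array probe sets name singly, through all 10 probe sets whose only gene symbol was one of the 9. Saa1 had 2 probe sets and is given by the brighter. Mammary epithelial cells had been isolated by digestion from glands of female C57BL/6 mice, and their mRNA was measured on 15 single-colour Affymetrix arrays, 1 per sample. The mice were labelled pregnant (day 21) or virgin (9 weeks) and had been injected intraperitoneally with 5-azacytidine (AzaC, an inhibitor of DNA methylation), valproic acid (VPA, an inhibitor of histone deacetylases) or PBS. The arrays labelled pregnant comprised 3 AzaC, 3 VPA and 2 PBS arrays, and those labelled virgin comprised 3 AzaC, 2 VPA and 2 PBS arrays. Doses, injection times, and whether replicates came from separate mice are not given in the sources used here, so the p-values measure only the spread between these arrays.

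Acute-phase proteins are secreted mainly by the liver when cytokines of the interleukin-6 and interleukin-1 families act on it. The interleukin-6 family signals through the receptor subunit gp130 to STAT3, and C/EBP factors and NF-kB act on the same target genes. Epithelium makes several of these proteins too, and in the mouse mammary gland their transcripts are known to increase when milk removal stops and involution begins, while lipocalin 2 and lactoferrin withhold iron from bacteria in milk.

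The stretches before a RefSeq transcript start of these genes are shown first, because C/EBP, STAT and NF-kB motifs are the known entry points of the acute-phase signal. Which starts the measured transcripts use was not tested. The Saa3 stretch lies inside its annotated gene (46711998 to 46719615), and the Saa1 stretch lies partly inside its own (46740497 to 46743181). RefSeq promoters (mouse build GRCm38.p6) were found for 7 of the 9 genes; Orm1 and Hp had none in that table. The 250 bases before the start are printed 5′ to 3′ on the gene's own strand for the serum amyloid genes, Orm2 and Lrg1, with any match to the C/EBP letters in capitals. The windows are chr7:46742981-46743230 (minus strand) for Saa1, chr7:46751583-46751832 (plus) for Saa2, chr7:46715677-46715926 (minus) for Saa3, chr4:63362199-63362448 (plus) for Orm2 and chr17:56121947-56122196 (minus) for Lrg1.
Saa1: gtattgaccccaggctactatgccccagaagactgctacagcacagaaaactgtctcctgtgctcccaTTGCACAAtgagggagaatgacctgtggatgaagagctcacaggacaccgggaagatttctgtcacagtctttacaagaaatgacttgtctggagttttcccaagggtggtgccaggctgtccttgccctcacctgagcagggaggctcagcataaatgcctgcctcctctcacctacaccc
Saa2: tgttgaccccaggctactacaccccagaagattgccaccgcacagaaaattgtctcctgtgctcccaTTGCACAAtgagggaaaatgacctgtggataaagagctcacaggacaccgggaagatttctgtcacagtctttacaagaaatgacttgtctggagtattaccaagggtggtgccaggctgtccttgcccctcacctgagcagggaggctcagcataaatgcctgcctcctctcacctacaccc
Saa3: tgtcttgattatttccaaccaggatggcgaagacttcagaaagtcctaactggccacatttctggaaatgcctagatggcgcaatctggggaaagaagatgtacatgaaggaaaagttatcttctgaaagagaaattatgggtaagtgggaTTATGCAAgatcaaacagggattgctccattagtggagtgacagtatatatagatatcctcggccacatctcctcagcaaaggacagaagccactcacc
Orm2: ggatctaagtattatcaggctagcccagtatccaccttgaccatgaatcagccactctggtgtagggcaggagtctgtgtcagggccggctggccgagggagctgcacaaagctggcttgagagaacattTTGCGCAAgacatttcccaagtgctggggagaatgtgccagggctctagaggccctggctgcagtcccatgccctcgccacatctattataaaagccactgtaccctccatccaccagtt
Lrg1: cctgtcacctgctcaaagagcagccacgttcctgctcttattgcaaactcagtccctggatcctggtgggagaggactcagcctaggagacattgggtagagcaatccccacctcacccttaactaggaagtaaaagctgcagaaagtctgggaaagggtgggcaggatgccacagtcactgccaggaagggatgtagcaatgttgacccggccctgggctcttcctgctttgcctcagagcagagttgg

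The C/EBP letters searched were TTGCNNAA, on both strands, and they were chosen after the promoters had been read. They occurred in 6 of the 7 promoters, against 9.56% of all 32851 promoters of the same length. Saa1 held TTGCACAA starting 182 bases before the transcription start, Saa2 the same letters at 183 bases, Saa3 TTATGCAA at 99 bases, and Orm2 TTGCGCAA at 120 bases. Lcn2 held TTGCTCAA at 216 bases and Ltf TTGGGCAA at 75 bases. Lrg1 held no match in this window. The STAT letters TTCNNNGAA, which read the same on both strands, occurred in 0 of the 7 promoters and in 7.02% of all. The NF-kB letters GGGRNNYYCC (R for A or G, Y for C or T) were searched on the gene's own strand only. They occurred in 0 of the 7 and in 5.0% of all. No match overlapped another, and a match or its absence is a description of these letters only. The Saa1 and Saa2 promoters were identical at 238 of 249 aligned bases (95.6%). CpG, the dinucleotide that DNA methyltransferases act on, occurred 1 to 4 times in each of the 7 promoters, against a median of 6 over all promoters.

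Several properties of the arrays bear on every value below. The values are the authors' deposited signals, taken as log2 signals, with array medians of 7.22 to 7.47 and maxima of 14.30 to 14.48. Milk protein transcripts were at the top of this scale on all 15 arrays, those labelled virgin included. Csn2, encoding β-casein, lay between 13.69 and 14.03 and Wap, encoding whey acidic protein, between 13.41 and 14.18. Comparisons between stages are therefore given as comparisons between labels. The AzaC replicate 1 labelled virgin stood apart: it was the lowest of the 15 arrays for 6 of the 9 genes (Saa1, Saa2, Saa3, Orm2, Lrg1 and Lcn2). On it the 9 genes deviated from their own medians over the arrays by a median of -1.84, against -0.02 for all genes. The Gapdh 3′ minus 5′ difference, a sign of shortened RNA, was 0.07 on that array. It was highest, at 1.23, on PBS replicate 2 labelled virgin, the lowest array for Hp and Ltf. Next came AzaC replicate 1 labelled pregnant (0.85) and VPA replicate 3 labelled pregnant (0.82), and fits without those 3 arrays are given with the alternatives.

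**Figure D1:**
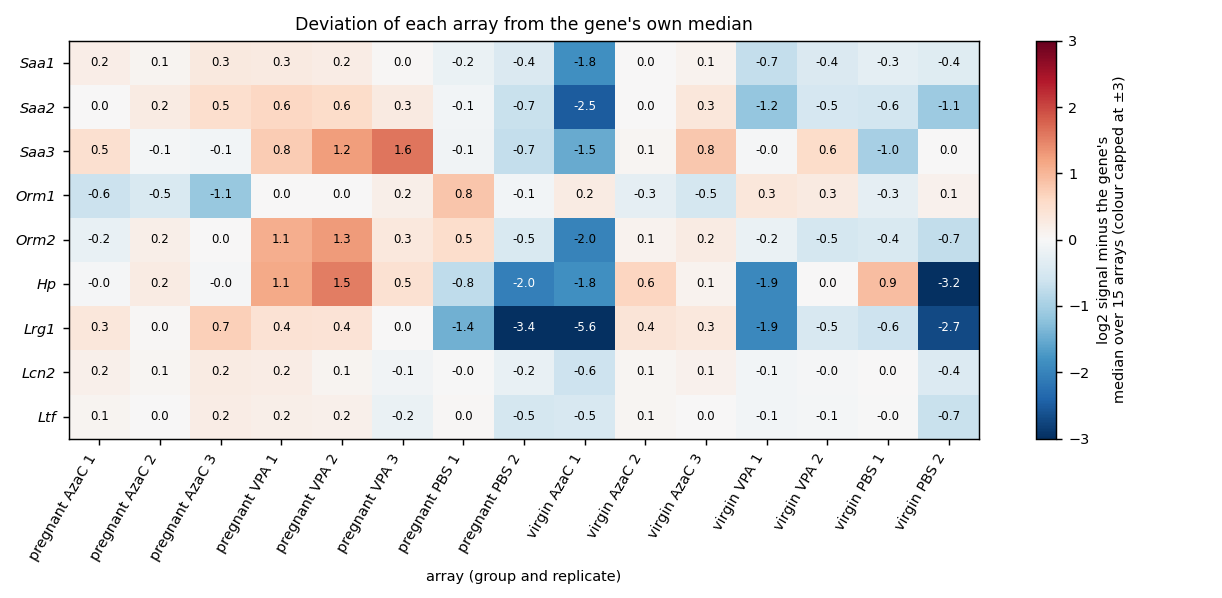
Deviation of each of the 9 genes from its own median over the 15 arrays (log2 signal), with genes down the page, arrays across it and colour for the deviation, capped at 3 in either direction. AzaC replicate 1 labelled virgin is the darkest column below the medians, with a median deviation of -1.84, and PBS replicate 2 labelled pregnant has 9 genes below their own medians.

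At the pregnant label, after AzaC, Orm1 was the only one of the 9 genes that passed the test, and it fell to 0.461 of the PBS level. After VPA none of the 9 passed. The highest fold changes were those of Lrg1, at 6.98 after AzaC and 6.59 after VPA, and of Hp, at 5.45 after VPA, none past the threshold. The test was limma's moderated test over all 12393 genes, with a threshold of 0.05 on the Benjamini-Hochberg adjusted p. Of all genes, 3.81% fell and 3.76% rose after AzaC (7.57% together), and 2.34% fell and 3.64% rose after VPA (5.98% together). At an unadjusted p under 0.05 there were 1 of the 9 genes after AzaC and 2 after VPA. Counted by arrays that did not overlap, 6 of the 9 were higher and 1 was lower after AzaC, where 23.5% of all genes were higher and 20.9% lower. After VPA, 5 were higher and 0 lower, against 25.7% and 17.6% of all genes. The median change of the 9 genes was 0.50 after AzaC and 0.86 after VPA on the log2 scale, against medians over all genes of 0.04 after AzaC and 0.06 after VPA. The 2 pregnant PBS arrays serve both drug comparisons, so these are not independent. Without AzaC replicate 1 labelled virgin, which enters these comparisons only through the shared estimate of the spread, 2 of the 9 genes passed after AzaC (Lrg1 and Orm1) and 2 after VPA (Lrg1 and Saa3). The share of all genes passing was then 10.6% after AzaC and 10.0% after VPA. In such bulk samples, fewer cells of a type and less RNA per cell cannot be told apart.

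**Figure D2:**
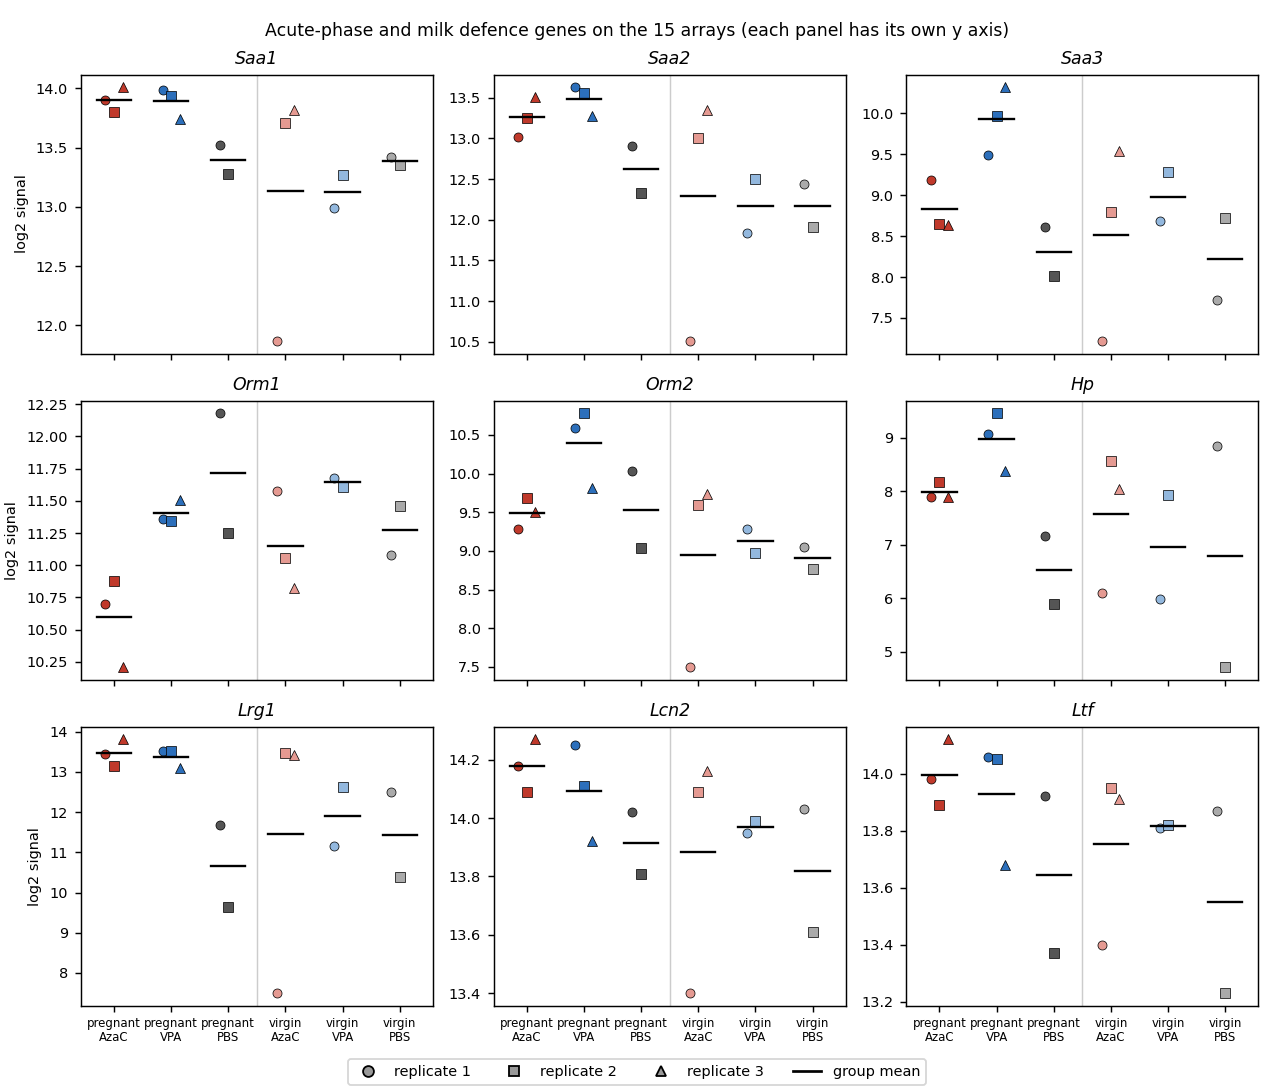
Log2 signal (vertical axis) of each of the 9 genes on each of the 15 arrays, by stage label and injection, with points for arrays and bars for group means. Lrg1 lies between 13.10 and 13.81 on the 6 drug arrays labelled pregnant and at 11.67 and 9.65 on the 2 PBS arrays.

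Lrg1 encodes leucine-rich alpha-2-glycoprotein, a secreted acute-phase protein that modulates TGF-β signalling in blood vessels. Its log2 signal was 13.44, 13.14 and 13.81 after AzaC and 13.53, 13.51 and 13.10 after VPA in arrays labelled pregnant, against 11.67 and 9.65 after PBS. In arrays labelled virgin it was 7.50, 13.48 and 13.42 after AzaC and 11.17 and 12.62 after VPA, against 12.49 and 10.39 after PBS. All 6 drug arrays labelled pregnant lay above both PBS arrays, while the 2 PBS arrays of each label were themselves far apart. The change was 2.80 ± 1.47 (SE, adjusted p = 0.255) after AzaC and 2.72 ± 1.47 (adjusted p = 0.282) after VPA at the pregnant label. Without AzaC replicate 1 labelled virgin, whose Lrg1 signal of 7.50 was the lowest of the 15 arrays, the SE of the VPA change was 0.69. Lrg1 then passed in both comparisons (limma adjusted p = 0.0308 after AzaC and 0.0345 after VPA), which it did in no other of the 15 omissions. Without PBS replicate 1 labelled pregnant the change was 3.81 after AzaC and 3.73 after VPA, and without PBS replicate 2 it was 1.79 after AzaC (adjusted p = 0.664) and 1.71 after VPA (adjusted p = 0.697). In order of group means, pregnant AzaC (13.46 ± 0.34, SD, n = 3) and pregnant VPA (13.38 ± 0.24, n = 3) came first and overlapped. Virgin VPA (11.90 ± 1.03, n = 2), virgin AzaC (11.47 ± 3.44, n = 3), virgin PBS (11.44 ± 1.48, n = 2) and pregnant PBS (10.66 ± 1.43, n = 2) followed, and these 4 groups overlapped. Virgin AzaC also overlapped the first 2 groups, through its signals of 13.48 and 13.42. Over the 15 arrays Lrg1 spanned 6.31 log2 units, a wider range than that of 99.9% of the 6197 genes above the median gene. The median range of those genes was 1.11. The lower end of the Lrg1 span was set by AzaC replicate 1 labelled virgin alone (7.50), and the next lowest signal was 9.65.

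The serum amyloid A genes encode apolipoproteins that join high-density lipoprotein in the acute phase, and Saa3 is the form known to be made outside the liver, mammary epithelium included. Saa1 had log2 signals of 13.90, 13.80 and 14.01 after AzaC and 13.99, 13.94 and 13.74 after VPA in arrays labelled pregnant, against 13.52 and 13.28 after PBS. In arrays labelled virgin it had 11.87, 13.71 and 13.82 after AzaC and 12.99 and 13.27 after VPA, against 13.42 and 13.35 after PBS. All 6 drug arrays labelled pregnant lay above their PBS arrays, by changes of 0.50 ± 0.45 (SE, adjusted p = 0.522) after AzaC and 0.49 ± 0.45 (adjusted p = 0.544) after VPA. Saa1 exceeded 13 on 13 of the 15 arrays, a level that the means of 0.742% of genes exceeded, and the array maxima leave little room above it. The other probe set annotated to Saa1 followed it closely, with a root-mean-square difference of 0.07 after each was centred. Its design accession is that of Saa2 in RefSeq, and the Saa2 probe set is of a kind that may bind related transcripts, so the array may not separate Saa1 from Saa2.

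Saa2 had log2 signals of 13.02, 13.25 and 13.51 after AzaC and 13.63, 13.56 and 13.28 after VPA in arrays labelled pregnant, against 12.91 and 12.33 after PBS. In arrays labelled virgin it had 10.51, 13.00 and 13.35 after AzaC and 11.84 and 12.50 after VPA, against 12.44 and 11.91 after PBS. The pregnant drug arrays again lay above the PBS arrays, with changes of 0.64 ± 0.65 (SE, adjusted p = 0.582) after AzaC and 0.87 ± 0.65 (adjusted p = 0.446) after VPA. Saa3 had 9.19, 8.65 and 8.64 after AzaC and 9.49, 9.97 and 10.32 after VPA in arrays labelled pregnant, against 8.61 and 8.01 after PBS. Its virgin-label signals were 7.22, 8.79 and 9.54 after AzaC and 8.68 and 9.28 after VPA, against 7.72 and 8.72 after PBS. Its 3 pregnant VPA arrays were above the 3 pregnant AzaC arrays, which in turn were just above the PBS arrays. The VPA change of Saa3 was 1.62 ± 0.57 (SE, adjusted p = 0.113), a 3.07-fold difference, and the AzaC change was 0.52 ± 0.57 (adjusted p = 0.618). Without AzaC replicate 1 labelled virgin, the VPA change of Saa3 passed (SE 0.39, adjusted p = 0.0284).

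Orm1 and Orm2 encode orosomucoids, also called alpha-1-acid glycoproteins, which carry lipophilic drugs and steroids in plasma. Orm1 had log2 signals of 10.70, 10.88 and 10.21 after AzaC and 11.36, 11.34 and 11.51 after VPA in arrays labelled pregnant, against 12.18 and 11.25 after PBS. In arrays labelled virgin it had 11.58, 11.06 and 10.82 after AzaC and 11.68 and 11.61 after VPA, against 11.08 and 11.46 after PBS. The 3 pregnant AzaC arrays lay below the pregnant VPA and PBS arrays, while the VPA arrays lay inside the range of the PBS pair. Orm1 fell by 1.12 ± 0.30 (SE, adjusted p = 0.0482) after AzaC at the pregnant label, and its VPA change was -0.31 ± 0.30 (adjusted p = 0.571). The call was close to the threshold: with each of the 15 arrays left out in turn it held 2 times, without AzaC replicate 2 labelled pregnant and without AzaC replicate 1 labelled virgin. Without PBS replicate 1 labelled pregnant, the highest array for Orm1, the change was -0.65 (adjusted p = 0.343), and without PBS replicate 2 it was -1.58 (adjusted p = 0.0775). Over all 15 omissions the adjusted p lay between 0.0329 and 0.343. Orm1 was also the only one of the 9 genes above its own median on AzaC replicate 1 labelled virgin.

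Orm2 had log2 signals of 9.28, 9.68 and 9.50 after AzaC and 10.59, 10.78 and 9.82 after VPA in arrays labelled pregnant, against 10.03 and 9.04 after PBS. In arrays labelled virgin it had 7.50, 9.60 and 9.74 after AzaC and 9.29 and 8.98 after VPA, against 9.05 and 8.77 after PBS. Both drug groups labelled pregnant overlapped the PBS pair, with changes of -0.05 ± 0.58 (SE, adjusted p = 0.973) after AzaC and 0.86 ± 0.58 (adjusted p = 0.39) after VPA. Its AzaC change was thus near 0 in the comparison in which Orm1 fell. The difference Orm1 minus Orm2, taken within each array, was 1.42, 1.20 and 0.71 after AzaC and 0.77, 0.56 and 1.69 after VPA in arrays labelled pregnant, against 2.15 and 2.21 after PBS. All 6 drug arrays were lower in this difference than the PBS pair, which describes unequal change of the 2 probe sets. The same difference at the virgin label was 4.08, 1.46 and 1.08 after AzaC and 2.39 and 2.63 after VPA, against 2.03 and 2.69 after PBS.

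Hp encodes haptoglobin, which binds free haemoglobin. Its mean over the arrays lay below that of the median gene, 7.79. Its signals ranged from 7.89 to 8.18 after AzaC and from 8.38 to 9.46 after VPA in arrays labelled pregnant, against 5.89 to 7.16 after PBS. At the virgin label they ranged from 6.09 to 8.57 after AzaC and from 5.99 to 7.93 after VPA, against 4.71 to 8.85 after PBS. All 6 pregnant drug arrays exceeded the PBS pair, while the virgin groups overlapped throughout. The VPA change at the pregnant label was 2.44 ± 1.07 (SE, adjusted p = 0.185) and the AzaC change 1.46 ± 1.07 (adjusted p = 0.425). The low value of 4.71 came from PBS replicate 2 labelled virgin, the array with the highest Gapdh 3′ minus 5′ difference.

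Lcn2 encodes lipocalin 2, which captures bacterial siderophores, and Ltf encodes lactoferrin, an iron-binding protein of milk. Lcn2 had log2 signals of 14.18, 14.09 and 14.27 after AzaC and 14.25, 14.11 and 13.92 after VPA in arrays labelled pregnant, against 14.02 and 13.81 after PBS. Its signals at the virgin label were 13.40, 14.09 and 14.16 after AzaC and 13.95 and 13.99 after VPA, against 14.03 and 13.61 after PBS. Both genes exceeded 13 on all 15 arrays, and Lcn2 was at the 99.6th percentile of genes or above on each. Ltf had 13.98, 13.89 and 14.12 after AzaC and 14.06, 14.05 and 13.68 after VPA in arrays labelled pregnant, against 13.92 and 13.37 after PBS. On the virgin arrays Ltf had 13.40, 13.95 and 13.91 after AzaC and 13.81 and 13.82 after VPA, against 13.87 and 13.23 after PBS. Drug and PBS arrays overlapped for Ltf at both labels. The pregnant changes of Lcn2 and Ltf lay between 0.18 and 0.35, with adjusted p from 0.412 to 0.685. Their ranges over the 15 arrays, 0.87 for Lcn2 and 0.89 for Ltf, were below the median range of the genes above the median gene. Signals this near the array maximum may understate differences, which was not tested.

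At the virgin label, none of the 9 genes passed the test after AzaC or VPA, and none had an unadjusted p under 0.05. Of all genes, 0.0% passed after AzaC and 0.00807% after VPA. After AzaC 0 of the 9 were higher and 0 lower with no overlap (11.5% and 6.8% of all genes), and after VPA 1 was higher, Orm1, and 1 lower, Saa1 (20.8% and 15% of all genes). The other probe set annotated to Saa1 did overlap there, with 12.95 and 13.30 after VPA against 13.26 and 13.18 after PBS. Changes ran from -0.25 to 0.79 after AzaC (limma adjusted p 0.874 to 1.0) and from -0.26 to 0.76 after VPA (adjusted p 0.826 to 1.0). The median of the 9 genes was 0.06 after AzaC and 0.22 after VPA, against 0.06 after AzaC and 0.05 after VPA over all genes. Without AzaC replicate 1, the AzaC change of Lrg1 was 2.01 ± 0.75 (SE, adjusted p = 0.289), that of Hp 1.52, Saa2 1.00, Saa3 0.94, Orm2 0.76 and Orm1 -0.33, and again none passed. The remaining AzaC arrays labelled virgin resembled the pregnant drug arrays in Lrg1 (13.48 and 13.42), as AzaC replicate 1 did not (7.50). Whether a drug change differed between stage labels was tested as an interaction. None of the 9 passed it for AzaC, where 0.0% of all genes did, or for VPA, where 0.315% did. For AzaC, 1 of the 9 had an unadjusted p under 0.05, Orm1, whose AzaC change at the pregnant label minus that at the virgin label was -1.0 (adjusted p = 0.356).

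**Figure D3:**
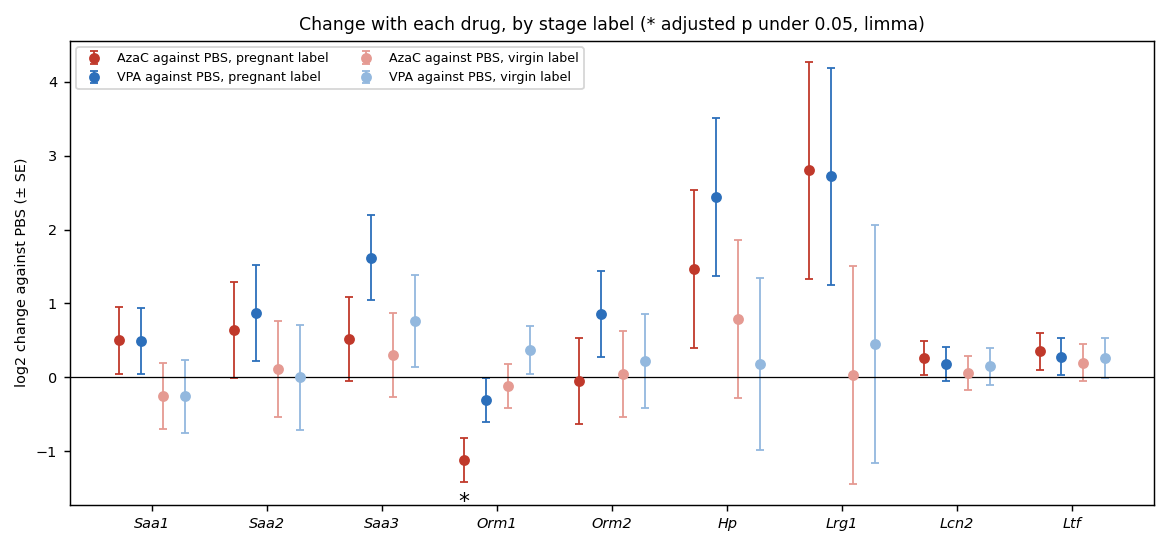
Log2 change against PBS (vertical axis) of each of the 9 genes after AzaC and VPA, at the pregnant and virgin labels, with points for limma estimates and bars for their standard errors. Lrg1 is at 2.80 after AzaC and 2.72 after VPA at the pregnant label with an SE of 1.47, and Orm1 after AzaC, at -1.12, is the only change past the threshold.

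The drugs were also set against each other. At the pregnant label, 4 of the 9 genes were lower after AzaC than after VPA with no overlap between groups, and 0 were higher, against 5.54% and 2.52% of all genes. These were Saa3 (-1.10), Hp (-0.98), Orm2 (-0.91) and Orm1 (-0.81), in log2 differences of AzaC minus VPA. None passed limma's test (adjusted p = 1.0 for each), and 1 of the 9, Orm1, had an unadjusted p under 0.05. No gene of the whole array passed in this comparison (0.0%). Between the drug groups labelled virgin none of the 9 passed either, where 0.0% of all genes did, and Orm1 was lower after AzaC with no overlap (13.7% of all genes).

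Between stage labels, none of the 9 passed with any injection. After PBS the differences, pregnant minus virgin, ran from -0.78 to 0.63 (limma adjusted p = 1.0 for each), where 0.00807% of all genes passed. After AzaC 1.23% of all genes passed (0.121% rose and 1.11% fell), and the groups of each of the 9 genes overlapped (8.81% of all genes were higher with no overlap and 14.0% lower). After VPA, 3.7% of all genes rose and 2.96% fell (6.66% together). There 6 of the 9 were higher at the pregnant label with no overlap and 1, Orm1, was lower, where 26.2% of all genes were higher and 19.8% lower. The 6 were Hp (2.01), Lrg1 (1.49), Saa2 (1.32), Orm2 (1.26), Saa3 (0.95) and Saa1 (0.76), with adjusted p of at least 0.2. Without AzaC replicate 1 labelled virgin, Saa1 (adjusted p = 0.0176), Saa2 (0.0187) and Orm2 (0.039) passed, when 10.2% of all genes did.

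The cytokine pathway that feeds the acute phase was read from lists of its parts. The lists were chosen with earlier results of these data known, so their counts are descriptions only. At the pregnant label, 6 of 25 signal transducers and transcription factors rose after AzaC and 7 of 25 after VPA, and 0 fell in either, against 3.76% of all genes that rose after AzaC and 3.64% after VPA. Their median change was 0.65 after AzaC and 0.49 after VPA. Socs3, the feedback inhibitor that STAT3 induces, had log2 signals of 10.85, 10.31 and 9.66 after AzaC and 10.10, 10.59 and 10.26 after VPA, against 6.79 and 6.52 after PBS. Socs3 rose by 3.62 after AzaC (limma adjusted p = 0.000683) and by 3.66 after VPA (adjusted p = 0.000602). It passed in both comparisons with each of the 15 arrays left out in turn, at adjusted p of 0.0173 or less. With only the arrays of the groups compared in the fit, the adjusted p of Socs3 was 0.0609 after AzaC, where 0 of all genes passed, and 0.0199 after VPA. Socs3 in arrays labelled virgin was 8.52, 8.78 and 8.54 after AzaC and 7.34 and 7.58 after VPA, against 6.93 and 6.88 after PBS, with no overlap between any of these groups. Of all genes at that label, 11.5% were higher with no overlap after AzaC than after PBS. The share was 20.8% for VPA above PBS and 13.1% for AzaC above VPA. No gene of any list passed at that label.

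Stat3 itself, the transcription factor of the interleukin-6 family, had 12.83, 12.40 and 13.02 after AzaC and 12.70, 12.51 and 12.26 after VPA in arrays labelled pregnant, against 10.86 and 10.34 after PBS. It rose by 2.15 after AzaC (adjusted p = 0.0188) and by 1.89 after VPA (adjusted p = 0.0318). The NF-kB subunits Relb and Rela also rose with both drugs, Relb by 2.80 after AzaC and 2.96 after VPA, and Rela by 1.29 after AzaC and 1.26 after VPA. The PBS signals of Relb were 4.98 and 3.85, low on this scale, and with values under 5 set to 5 its change was 2.22 after AzaC and 2.37 after VPA. Cebpd, a C/EBP factor of the acute phase, rose after VPA (1.83, adjusted p = 0.0392), and its AzaC change was 1.27 (adjusted p = 0.103). For Cebpb, another C/EBP factor, the change was 1.48 (adjusted p = 0.0692) after AzaC and 1.67 (adjusted p = 0.0535) after VPA.

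Among 13 receptors of acute-phase cytokines, 1 rose after AzaC and 2 after VPA, with medians of 0.56 after AzaC and 0.73 after VPA. Osmr, the oncostatin M receptor that pairs with gp130, had 10.71, 9.93 and 10.94 after AzaC and 10.41, 10.24 and 10.28 after VPA in arrays labelled pregnant, against 6.98 and 6.97 after PBS. The drug arrays lay far above a PBS pair that hardly differed, and Osmr rose by 3.55 after AzaC (adjusted p = 0.012) and 3.34 after VPA (adjusted p = 0.0171). Il6st, which encodes gp130, rose after VPA (1.32, adjusted p = 0.0469), with a change of 1.04 (adjusted p = 0.0837) after AzaC. Of 11 ligands, 2 rose with each drug. They were Lif, a ligand of the interleukin-6 family known to activate STAT3 in the mammary gland, which rose by 2.09 after AzaC (adjusted p = 0.0171) and 1.79 after VPA (adjusted p = 0.0304), and Tgfb3, a TGF-β ligand, which rose by 3.63 after AzaC and 3.43 after VPA. The PBS signals of Lif were 4.85 and 4.75, and with values under 5 set to 5 its change was 1.89 (adjusted p = 0.0295) after AzaC and 1.59 (adjusted p = 0.0526) after VPA. The ligand medians, 0.08 after AzaC and -0.02 after VPA, were near those of all genes.

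Of 26 other acute-phase proteins, a list whose counts, like those of the other lists of 11 to 29 genes, stand against the same shares of all genes, 2 rose and 0 fell with each drug at the pregnant label, with medians of 0.40 after AzaC and 0.41 after VPA. Cd14, the co-receptor for bacterial lipopolysaccharide, had 13.74, 13.92 and 14.06 after AzaC and 13.90, 13.87 and 13.65 after VPA, against 10.50 and 9.89 after PBS. It rose by 3.71 after AzaC (adjusted p = 0.0193) and 3.61 after VPA (adjusted p = 0.025). Mt2, encoding the metal-binding metallothionein 2, rose by 3.16 after AzaC (adjusted p = 0.0486) and 3.51 after VPA (adjusted p = 0.0388). Cd14 in arrays labelled virgin was 10.35, 13.24 and 13.35 after AzaC and 10.44 and 11.01 after VPA, against 12.20 and 10.62 after PBS. AzaC replicate 1 thus stood below the other AzaC arrays in Cd14 as it did in Lrg1 and the serum amyloid genes.

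Of 29 other milk and epithelial defence proteins, 1 rose and 2 fell after AzaC, and 1 rose and 1 fell after VPA, with medians of 0.08 after AzaC and 0.29 after VPA. Lpo, encoding lactoperoxidase, an antibacterial enzyme of milk, had 8.52, 9.42 and 8.83 after AzaC and 8.90, 9.05 and 9.84 after VPA in arrays labelled pregnant, against 10.86 and 10.59 after PBS. Lpo fell with both drugs, with log2 changes of -1.80 after AzaC (adjusted p = 0.0133) and -1.46 after VPA (adjusted p = 0.0278). Anxa1, encoding the anti-inflammatory annexin A1, rose by 2.01 after AzaC (adjusted p = 0.0316) and 2.27 after VPA (adjusted p = 0.0255). Cidea, a lipid-droplet gene in this list, fell by 1.93 after AzaC (adjusted p = 0.0349). After VPA Cidea did not pass. With each of the 15 arrays left out in turn, its VPA change lay between -1.56 and -1.42 and passed 2 times. Among 14 genes that bind or process the 9 proteins, 1 rose and 1 fell with each drug, with medians of 0.07 after AzaC and 0.06 after VPA. Tfrc, the transferrin receptor through which cells take up iron, fell with both drugs, with changes of -1.93 after AzaC (adjusted p = 0.0177) and -1.66 after VPA (adjusted p = 0.0315). The protease Mmp9, which forms a complex with lipocalin 2, had low signals, 4.97, 5.20 and 5.13 after AzaC and 5.66, 5.09 and 5.42 after VPA in arrays labelled pregnant, against 4.17 and 4.48 after PBS. Its change was 0.77 after AzaC (adjusted p = 0.0393) and 1.06 after VPA (adjusted p = 0.019), but 0.11 after AzaC (adjusted p = 0.76) and 0.39 after VPA (adjusted p = 0.14) once values under 5 were set to 5.

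Apart from Socs3, the genes of these lists named above as passing (Stat3, Relb, Rela, Osmr, Lif, Tgfb3, Cd14, Mt2, Anxa1, Lpo, Tfrc and Mmp9 with both drugs, Cebpd and Il6st after VPA and Cidea after AzaC) lost their calls when either of the 2 PBS arrays labelled pregnant was left out. Stat3 had an adjusted p of 0.0922 after AzaC without PBS replicate 1 and of 0.125 without PBS replicate 2. Their direction held in every omission. Some drug arrays mattered too. After AzaC, Stat3, Relb, Rela, Tgfb3, Cd14, Cidea, Anxa1 and Mmp9 did not pass without AzaC replicate 1 or without replicate 3, and Mt2 passed in 3 of the 15 omissions. After VPA, Stat3, Relb, Tgfb3, Cebpd, Il6st, Cd14, Mt2, Anxa1 and Tfrc did not pass when any 1 VPA array labelled pregnant was left out, and Il6st passed in 3, Mt2 in 5 and Cebpd in 6 of the 15 omissions. With only the compared arrays fitted, none of these genes passed after AzaC, and Lif, Mt2, Lpo, Mmp9, Cebpd and Il6st did not pass after VPA. With values under 5 set to 5, Mt2 and Mmp9 passed with neither drug, and Lif, Cebpd and Il6st did not pass after VPA. The transducer list had 10 genes that rose with each drug without AzaC replicate 1 labelled virgin, where 6.24% of all genes rose after AzaC and 6.98% after VPA.

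**Figure D4:**
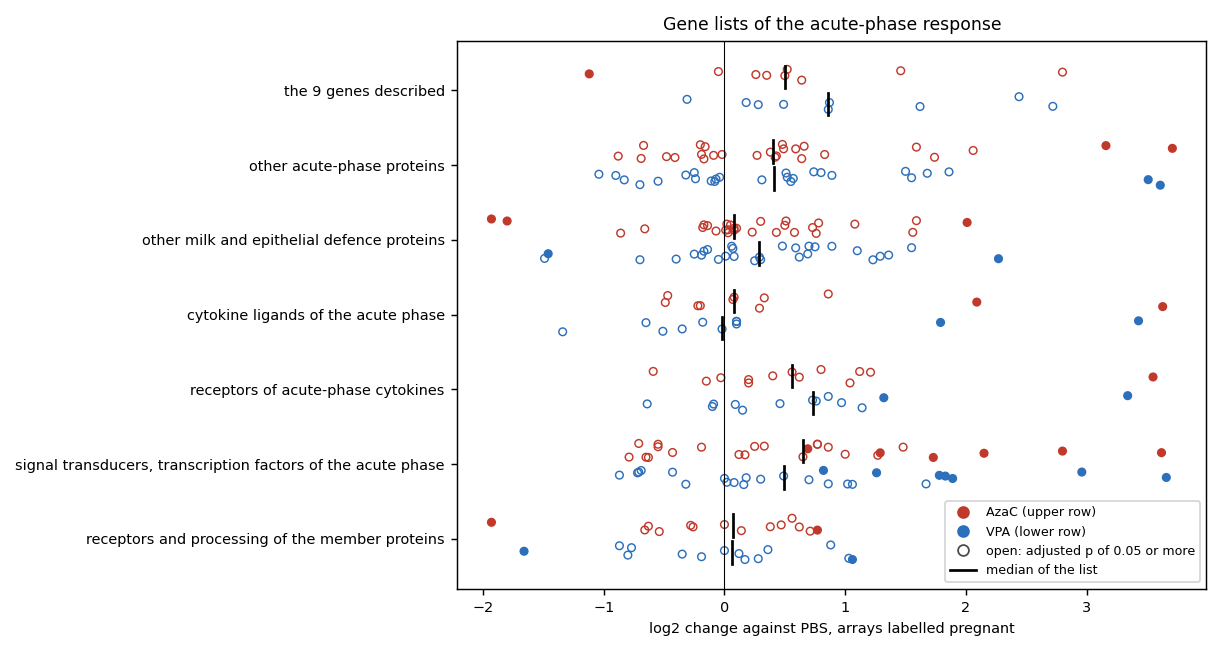
Log2 change against PBS at the pregnant label (horizontal axis) of every measured gene of the lists, by list, after AzaC and after VPA, with points for genes (filled where the adjusted p was under 0.05) and black marks for list medians. The 25 signal transducers and transcription factors have medians of 0.65 after AzaC and 0.49 after VPA, with Socs3 at 3.62 after AzaC and 3.66 after VPA.

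Markers of other cells were read beside these values. Counts of markers that rose stand against 3.76% of all genes after AzaC and 3.64% after VPA. Without AzaC replicate 1 labelled virgin these shares were 6.24% after AzaC and 6.98% after VPA. The summed signal of 14 neutrophil markers, cells that store lipocalin 2 and lactoferrin, was 10.43 to 10.67 after AzaC and 10.95 to 11.04 after VPA on the log2 scale in arrays labelled pregnant, against 10.01 to 10.23 after PBS. The 3 pregnant groups did not overlap in this sum. The median change of the 14 markers, however, was 0.11 after AzaC and 0.14 after VPA, against 0.04 and 0.06 over all genes. The macrophage, adipocyte, luminal, endothelial and fibroblast sums given below were also above PBS with both drugs, with no overlap. Of the granule genes, Ctsg was listed at 0 on every array of these 3 groups, and Camp on every VPA array. Prtn3 had 6.59, 6.51 and 7.90 after AzaC and 7.13, 7.99 and 7.90 after VPA, against 5.52 and 5.11 after PBS. Its drug arrays did not overlap PBS, as for 23.5% of all genes that were higher after AzaC and 25.7% after VPA. Mmp9 was the only one of the 14 to pass, and without AzaC replicate 1 labelled virgin Prtn3 and Lyz2 rose too after VPA. Lyz2 is in both the neutrophil and the macrophage list. The 14 macrophage markers summed to 13.06 to 13.26 after AzaC and 13.24 to 13.44 after VPA, against 12.59 to 12.80 after PBS. None of them passed with all arrays, and without AzaC replicate 1 labelled virgin 3 rose after AzaC (C1qa, Cx3cr1 and Aif1) and 4 after VPA (C1qa, C1qc, Lyz2 and Aif1). The 9 adipocyte markers summed to 14.62 to 14.76 after AzaC and 14.53 to 14.74 after VPA, against 13.86 to 14.16 after PBS, and none passed. The 9 luminal epithelial markers summed to 15.57 to 15.88 after AzaC and 15.64 to 15.88 after VPA, against 15.04 to 15.10 after PBS, so transcripts of the labelled cell type were detected on these arrays, and 1 of the 9, Cdh1, rose after VPA (1.60, adjusted p = 0.0463), a call kept in 3 of the 15 omissions. Of the 9, 4 rose after AzaC and 5 after VPA without AzaC replicate 1 labelled virgin. Hepatocyte markers, 11 in number, summed to 9.27 to 9.64 after AzaC and 9.25 to 9.39 after VPA, against 9.77 to 9.85 after PBS, and none passed. The 10 endothelial markers summed to 12.04 to 12.55 after AzaC and 11.89 to 12.52 after VPA, against 11.35 to 11.82 after PBS, and Cldn5 rose with both drugs (1.80 after AzaC and 1.98 after VPA), in 11 of the 15 omissions for each. The 10 fibroblast markers summed to 13.74 to 14.51 after AzaC and 13.91 to 14.90 after VPA, against 13.37 to 13.55 after PBS, and Dcn rose after VPA (1.37, adjusted p = 0.0499), in 4 of the 15 omissions. The part of these cell types in the changes was not tested.

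The genes whose profile lay nearest to each of the 9 were found by the root-mean-square difference of centred log2 signals over the 15 arrays, among genes above the median gene. For Lrg1 the nearest was Igfbp5, an insulin-like growth factor binding protein, at 0.48, beside an SD of 1.81 for Lrg1 itself. For Saa1 it was Klra17 at 0.19, followed by Cd74, the invariant chain of MHC class II, at 0.24 and Actg1 at 0.27, beside an SD of 0.55. The nearest to Saa2 was App at 0.34 (SD of Saa2 0.84). The nearest to Saa3 was Limd2 at 0.35 (SD of Saa3 0.82), and to Hp it was Acadl at 0.66 (SD of Hp 1.36). For Orm2 the nearest were Cxcl14 at 0.41 and the macrophage complement gene C1qc and the MHC class II gene H2-Ab1 at 0.42, beside an SD of 0.78. For Orm1 they were Ndufb9 and Ndufb2, subunits of respiratory complex I, at 0.25, beside an SD of 0.48. For Lcn2 it was Clu, encoding clusterin, at 0.09, beside an SD of 0.24, and for Ltf it was Mgst1 at 0.12, beside an SD of 0.27. Within the 9, Lcn2 and Ltf differed by 0.11, Saa1 and Saa2 by 0.34 and Saa2 and Orm2 by 0.38. The points share arrays and AzaC replicate 1 labelled virgin, and these distances are descriptions only.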

How the data were processed

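The authors' deposited table holds 22690 probe sets on 15 arrays, with values that were taken as log2 signals because of their range. The log base and the authors' summary and normalization are not given in the sources used here, and the values were used as deposited. Probe sets were named through the platform annotation: 20380 carried 1 symbol, 691 several and 1619 none. Each of 12393 genes was represented by its probe set of highest mean. Samples were grouped by their stage and injection labels. A group-means model was fitted to all 15 arrays with limma 3.58.1 in R 4.3.3, with 9 residual and 2.31 prior degrees of freedom, for 11 comparisons. Tests were two-sided and Benjamini-Hochberg adjusted over all genes. The fit was also run on simulated data with independent noise on each array and no outlying array, so that run does not bear on the calls given here. The number of arrays limits the precision.

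The 9 genes and the gene lists were chosen with earlier results of these data known. Of each list, up to 4 genes with the smallest p in a pregnant drug comparison could be named, plus Socs3, Stat3, Cebpb and Cebpd. Replicate numbers were not taken as pairs in the main fit. Of 33 same-number pairs, deviations correlated from -0.174 to 0.333, with 6 over the limit of 0.1. Pairs of different number were not correlated for comparison, so whether same-number arrays belong together was not tested. A fit with the replicate number as a block is given with the alternatives. Replicates correlated at 0.948 to 0.979 across genes, and none was a duplicate. Alternatives changed the normalization, the gene filter, the choice of probe sets, the variance prior, the arrays fitted and the covariates, and left out each array in turn.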

Additional observations from a re-analysis of the deposited data

How the results depend on the processing

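The number of the 9 genes that passed for AzaC against PBS at the pregnant label was 1. It was 0 under quantile normalization, with every probe set tested, with only the arrays compared, with the replicate number as a block, with a minimum change of 1.5-fold, with values under 5 set to 5, and without the 3 arrays of highest Gapdh difference. With each array left out in turn it lay between 0 and 2. For VPA at the pregnant label the count was 0, and between 0 and 2 with an array left out, and for the stage labels after VPA 0, and between 0 and 3. Each higher count came from leaving out AzaC replicate 1 labelled virgin. In the other 8 comparisons it was 0 under all 26 alternatives. Omissions of arrays outside the compared groups were added after the data were seen. Under the replicate block, Orm1 changed by -1.02 (adjusted p = 0.0906). Over all alternatives its adjusted p ran from 0.0192 to 0.735. The Orm2 change after AzaC, -0.05, was 0.06 without the 3 arrays of highest Gapdh difference, 0.05 without AzaC replicate 1 labelled pregnant, and between -0.54 and 0.45 with either PBS array left out. The Orm1 change after VPA, -0.31, was 0.15 without PBS replicate 1 and -0.78 without PBS replicate 2. The causes were not tested. Of all genes, 938 passed after AzaC at the pregnant label, against 0 with only the arrays compared, 466 with the block, 1 with the minimum change, 1623 with the Gapdh covariate, 448 without the 3 arrays, and 14 to 1335 with a compared array left out. After VPA 741 passed, against 364, 241, 7, 1233, 247 and 20 to 231 under the same settings. Signals over 13, near the array maximum, limit Lcn2 and Ltf on 15 arrays, Saa1 on 13, Lrg1 on 8 and Saa2 on 7.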
